A study of Rattus norvegicus with 16 samples.

Results

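The oxidative phosphorylation subunits are the nuclear-encoded proteins of the 5 respiratory complexes of the inner mitochondrial membrane. On the rat arrays analysed here they were taken as the genes whose platform symbol names a subunit of complex I (Nduf), complex II (Sdha to Sdhd), complex III (Uqcr), complex IV (Cox4 to Cox8) or complex V (Atp5). Only probe sets with a single gene symbol were used, and each gene was read from its brightest one. This gave 79 genes of 14217 named on the array, from 88 probe sets. Complex I had 33 genes, complex II 4, complex III 7, complex IV 19 and complex V 16. Ndufa4, which bears a complex I name but is a subunit of complex IV, was counted with complex IV together with its paralog Ndufa4l2. A further 7 probe sets of such genes carry several symbols and were left unnamed, so Atp5mc1, Atp5mc2 and Cox7a2 are not described, and Cox5a is read from a dim probe set. Of the 79 genes, 78 passed the filter on low signals. The gene under it was Cox7b2, with signals of 69.1, 12.1, 33.8 and 46.5 in F344 rats, 6.61, 89.6, 92.4 and 78.5 in LEW, 49.4, 10.1, 52.0 and 63.1 in COP and 3.48, 43.6, 38.9 and 40.5 in DA.

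The RNA was total RNA of the upper (proximal) femur, with the femoral head and neck, of rats aged 4 weeks. There were 4 inbred strains with 4 arrays each. F344 is Fischer 344, LEW is Lewis, COP is Copenhagen 2331 and DA is Dark Agouti, and the labels name no allele, treatment or sex. The stated purpose was to compare expression at a chromosome 4 locus mapped in a cross of F344 with LEW. Whether the 4 arrays of a strain were 4 animals is not stated in the labels. The p-values therefore rest on the spread between arrays, which may be technical.

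Complexes I and II take electrons from NADH and succinate, complex III passes them through cytochrome c to complex IV, which reduces oxygen, and complex V uses the proton gradient so built to make ATP. Most subunits are encoded in the nucleus and a few in mitochondrial DNA. Growing bone holds marrow, cartilage, bone cells and vessels, and a femur piece can carry adhering skeletal muscle, a tissue rich in mitochondria that uses its own isoforms of some complex IV subunits.

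Each array had 31099 probe sets and a median signal between 303 and 325. Of 12 osteoblast and bone matrix markers 8 had a named probe set, and their summed signal was 255464 to 281294 in F344 rats, 258356 to 291204 in LEW, 249934 to 286586 in COP and 261010 to 314206 in DA. Of 18 skeletal muscle markers 17 were named and measured above the filter, with a summed signal of 553047 to 589003 in F344 rats, 471502 to 590798 in LEW, 414611 to 514024 in COP and 544809 to 658998 in DA. Muscle transcripts were thus measured on every array, and their sum varied between arrays of one strain. In such bulk RNA, fewer cells of a type and less RNA per cell cannot be told apart.

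Subunit transcripts were plentiful. Mean signals over all 16 arrays ran from 250 for Cox6b2, a testis isoform, to 37235 for Cox4i1, the main form of the regulatory complex IV subunit 4, and 62 of the 78 genes had a mean signal above 8192. The highest mean belonged to Ndufb9 in complex I (28389), Sdhb in complex II (18796), Uqcr10 in complex III (28575), Cox4i1 in complex IV and Atp5mc3 in complex V (31313). The lowest belonged to Ndufb8 in complex I (2181), Sdhc in complex II (10981), Uqcrc1 in complex III (11444), Cox6b2 in complex IV and Atp5mpl in complex V (7865). Probe sets differ in how brightly they bind, so these levels are not ranked as amounts of RNA.

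Strain differences were small and ran mostly one way. COP had the lowest mean of the 4 strains for 55 of the 78 genes (70.5%, against 24.9% of all 10548 genes tested) and the highest for none of the 78. F344 had the highest mean for 47 genes and DA for 25. The commonest order from high to low was F344, DA, LEW, COP, in 28 genes, followed by DA, F344, LEW, COP, in 19. In the moderated F-test of limma over the 4 strains, 24 of the 78 genes passed an adjusted p under 0.05, or 30.8%, beside a background of 32.9% of all genes, so the share that differed at all was near the background. By complex, 13 of 33 passed in complex I, 1 of 4 in complex II, 1 of 7 in complex III, 5 of 18 in complex IV and 4 of 16 in complex V. With the pairwise tests included, 37 genes passed somewhere and 41 in no test. The share of all genes that passed in any of these tests was not counted, so the 37 have no background beside them. The spread of the 4 strain means of those 37 was 0.19 to 0.85 on the log2 scale (median 0.26), and no gene reached a 2-fold difference in any pair of strains. The 6 strain pairs share arrays, so their counts are not independent of one another.

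**Figure D1:**
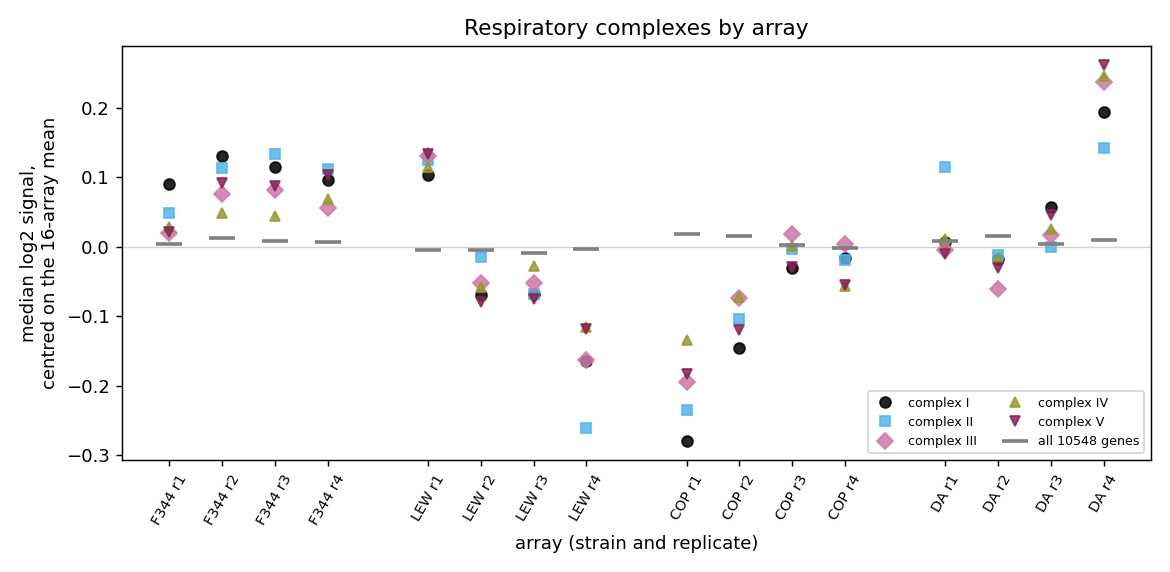
Median log2 signal of the genes of each respiratory complex on each of the 16 arrays, after centring every gene on its 16-array mean; grey bars are the median of all 10548 genes tested. The 5 complexes move together from array to array: over all members the F344 arrays lie between 0.04 and 0.11, COP replicate 1 is lowest at -0.21 and DA replicate 4 highest at 0.23.

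The complexes moved together within arrays. The median of all 78 genes, each centred on its mean over the arrays, was 0.04, 0.11, 0.09 and 0.08 on the log2 scale in F344 rats, 0.12, -0.06, -0.06 and -0.16 in LEW, -0.21, -0.11, -0.03 and -0.02 in COP and 0.01, -0.03, 0.05 and 0.23 in DA. All 4 F344 arrays were above all 4 COP arrays, while LEW and DA arrays overlapped both. The same medians over all genes tested stayed between -0.0092 and 0.019.

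The largest shift was between F344 and COP. Of the 78 genes, 27 were higher in F344 and 0 were lower (background 10.4% of all genes higher and 10.6% lower), and 75 had a difference above 0 (50% of all genes). The median log2 difference was 0.18, a fold of 1.13, against 9.3e-05 over all genes. In 40 genes the 4 F344 arrays lay wholly above the 4 COP arrays, which held for 13.2% of all genes, and in 0 wholly below. Members called higher numbered 16 of 33 in complex I, 1 of 4 in complex II, 2 of 7 in complex III, 3 of 18 in complex IV and 5 of 16 in complex V. The median differences of the complexes, in the same order, were 0.21, 0.19, 0.13, 0.14 and 0.16. Leaving out 1 array moved the 27 calls to 11 without COP replicate 1, 14 without COP replicate 2, and 14, 13 and 17 without F344 replicates 2, 3 and 4. The median difference stayed between 0.14 and 0.20 whichever array was left out. The share of all genes called with an array left out was not counted, in this or any other pair.

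Between F344 and COP, bright probe sets in general did not share the shift. The 62 subunit genes with a mean signal above 8192 had a median difference of 0.17 for F344 minus COP, and the 689 other genes above that signal had 0.0026. For COP minus DA these medians were -0.165 and -0.034. Above a signal of 32768 the COP minus DA median was -0.16 in 3 subunit genes and -0.10 in 77 other genes. The brightest genes thus shifted partly alike there. For F344 minus DA these medians were -0.010 and -0.12, and for LEW minus DA -0.065 and -0.088. The part of brightness in the subunit differences was not tested.

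**Figure D2:**
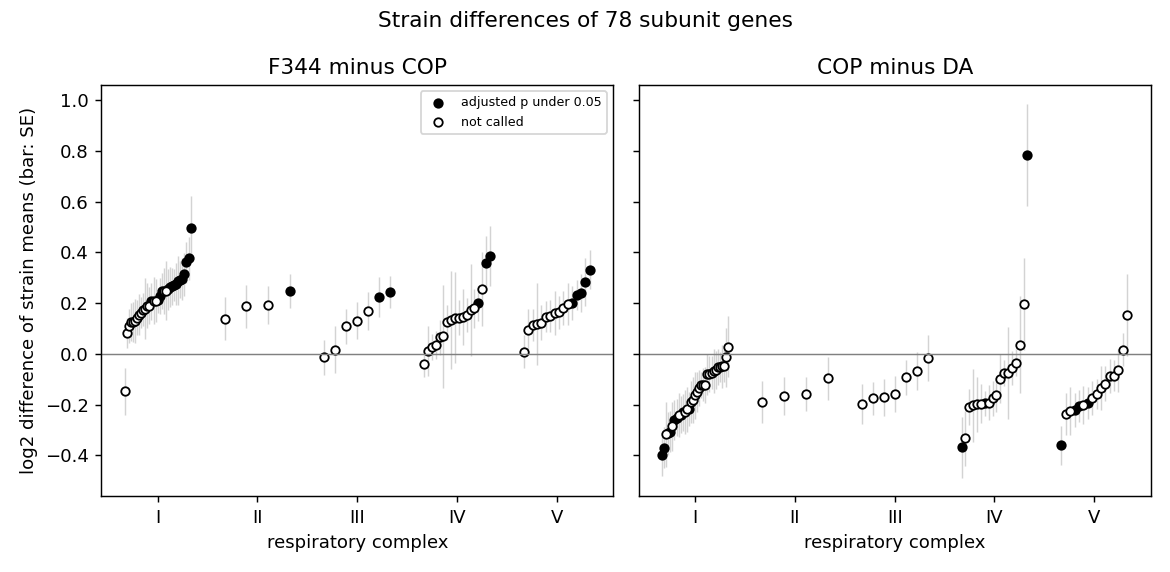
Log2 difference of strain means for each of the 78 genes by complex, F344 minus COP on the left and COP minus DA on the right, with the standard error as a bar; filled points passed an adjusted p under 0.05. In the left panel 75 points lie above 0, and in the right panel 72 lie below 0, with Ndufa4l2 apart at 0.79.

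Between COP and DA the direction was the reverse: 15 of the 78 genes were lower in COP and 1, Ndufa4l2, was higher (background 6.42% lower and 5.74% higher). The median difference was -0.16, with 6 genes above 0 (50.7% of all genes) and 72 below. In 19 genes the COP arrays lay wholly below the DA arrays and in 0 wholly above (8.56% and 8.18% of all genes). Of the 15, 9 were in complex I, 2 in complex IV and 4 in complex V, with none in complexes II and III. The count of called genes, 16, became 4 without COP replicate 1, 7 without COP replicate 2, and 6 without either DA replicate 3 or DA replicate 4.

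Between F344 and LEW, the parents of the mapping cross, 7 genes were higher in F344 and 0 lower (background 6.96% and 7.54%), with a median difference of 0.14 and 69 of 78 above 0 (52.8% of all genes). F344 and LEW arrays stood fully apart in 9 genes higher in F344 and 1 lower (9.86% and 9.44% of all genes). The 7 were Ndufb8, Ndufa2, Ndufa6 and Ndufa9 of complex I, Sdhc of complex II, and Uqcr10 and Uqcr11 of complex III. This count became 21 without LEW replicate 1 and 13 without DA replicate 4, and fell to 3 or 4 without any one of the F344 arrays, LEW replicates 2 to 4 or DA replicate 3. LEW minus DA gave 6 genes lower in LEW and 0 higher (background 5.77% and 4.65%), with a median of -0.10 and 12 genes above 0 (46.2% of all genes). Arrays did not overlap in 4 genes lower and 1 higher in LEW (7.55% and 5.88% of all genes). F344 minus DA gave 2 higher and 2 lower (background 8.11% and 9.20%), with a median of 0.03 and 51 genes above 0 (49.8% of all genes). LEW minus COP gave 1 gene higher, Ndufa12, and 0 lower (background 6.41% and 7.72%), with a median of 0.05 and 57 genes above 0 (47.7% of all genes). In 1 gene the LEW arrays lay wholly above those of COP (7.47% of all genes). The shares called in these last 4 pairs were thus near or below the background.

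Complex I holds nuclear-encoded core subunits, which carry the flavin and the iron-sulfur clusters, and many accessory subunits around them. Of the core genes 6 were measured by a single-symbol probe set, and 4 of them were higher in F344 than in COP: Ndufv1, Ndufv2, Ndufs3 and Ndufs7, by 0.23, 0.38, 0.31 and 0.29. Among accessory genes 12 of 27 were higher, with a median of 0.21. The background in this pair was 10.4% of all genes higher in F344 and 10.6% lower.

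Ndufv2, an iron-sulfur subunit of the NADH-oxidising tip, had signals of 18004, 20381, 20005 and 19949 in F344 rats, 20275, 17683, 16886 and 16254 in LEW, 12863, 15076, 16762 and 15804 in COP and 18228, 18310.3, 22389 and 20721 in DA. All COP arrays were below all F344 and all DA arrays. The log2 difference was 0.38 ± 0.08 (SE) for F344 minus COP, with an adjusted p of 0.00301, and -0.40 ± 0.08 for COP minus DA, with an adjusted p of 0.0031. Ndufs3, a core subunit next to the ubiquinone site, had 8961, 9387, 9095 and 8829.6 in F344 rats, 10049, 7793, 8229 and 7107 in LEW, 6574, 6887, 7643 and 8186 in COP and 8188, 8156, 8458 and 9469 in DA. Every F344 array was above every COP array, by 0.31 ± 0.09 on average (adjusted p 0.0134), while the LEW arrays spanned both strains.

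Ndufs8, a core subunit that carries iron-sulfur clusters, ran against the other core genes. Its signals were 4182, 4441, 4506 and 4412 in F344 rats, 5737, 4567, 4309 and 4489 in LEW, 4361, 4770.3, 5077 and 5274 in COP and 4919, 5297, 5314 and 6665 in DA. F344 was the lowest strain and all its arrays were below all DA arrays, with a difference of -0.33 ± 0.09 (adjusted p 0.0174). For F344 minus COP the value was -0.15 ± 0.09 with an adjusted p of 0.293, and the arrays overlapped.

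Ndufb8, an accessory subunit of the membrane arm, had the largest difference within complex I. Its signals were 2937, 2436, 3074 and 2285 in F344 rats, 1979, 1583, 1935 and 1549 in LEW, 1651, 1689, 2033 and 2237 in COP and 2434, 2039, 2085 and 2955 in DA. The F344 arrays were above all LEW and all COP arrays and overlapped those of DA. F344 exceeded LEW 1.52-fold (log2 0.60 ± 0.13, adjusted p 0.00251) and COP 1.41-fold (0.50 ± 0.13, adjusted p 0.00839), and LEW minus DA was -0.43 ± 0.13 (adjusted p 0.0358).

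Ndufa12, an accessory subunit of the matrix arm, was low in COP against each other strain. It had 18301, 22172, 20659 and 17882 in F344 rats, 20225, 17919.7, 18123 and 17898 in LEW, 13687, 14427, 16949.9 and 16469 in COP and 17966, 18986, 20663 and 21842 in DA. No COP array reached the lowest array of any other strain. The differences were 0.36 ± 0.08 for F344 minus COP (adjusted p 0.00318), 0.27 ± 0.08 for LEW minus COP (adjusted p 0.0272) and -0.37 ± 0.08 for COP minus DA (adjusted p 0.00407).

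Ndufb4, an accessory subunit of the membrane arm, had 23045, 23912, 23731 and 22668 in F344 rats, 23168, 19389, 18129.8 and 18838 in LEW, 17278, 20654, 19046 and 21517 in COP and 22651, 23135, 23452 and 27856 in DA. COP arrays lay below all F344 and all DA arrays, and 3 of 4 LEW arrays did too. The differences were 0.25 ± 0.08 for F344 minus COP (adjusted p 0.029), -0.31 ± 0.08 for COP minus DA (adjusted p 0.0146) and -0.29 ± 0.08 for LEW minus DA (adjusted p 0.0221).

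Ndufc1, a small membrane-arm subunit, had 7654, 8353, 8395 and 7569 in F344 rats, 7691, 6731, 6387 and 6146 in LEW, 5689, 6017, 7595 and 6891 in COP and 7725, 7752, 8034 and 8881 in DA. It separated COP and DA fully (-0.31 ± 0.08, adjusted p 0.0175) and LEW and DA fully (-0.27 ± 0.08, adjusted p 0.0458), while 1 COP array reached the lowest F344 array (F344 minus COP 0.30 ± 0.08, adjusted p 0.0162). Ndufa9, an accessory subunit near the ubiquinone site whose gene is on chromosome 4, had 10156, 10833, 10404 and 10532 in F344 rats, 9845, 8887, 9198 and 8002 in LEW, 7704, 7863, 9227 and 9584 in COP and 9597, 9769, 9995 and 10836 in DA. F344 arrays were above all LEW and all COP arrays. The differences were 0.23 ± 0.07 for F344 minus LEW (adjusted p 0.0437), 0.29 ± 0.07 for F344 minus COP (adjusted p 0.00683) and -0.23 ± 0.07 for COP minus DA (adjusted p 0.0439).

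**Figure D3:**
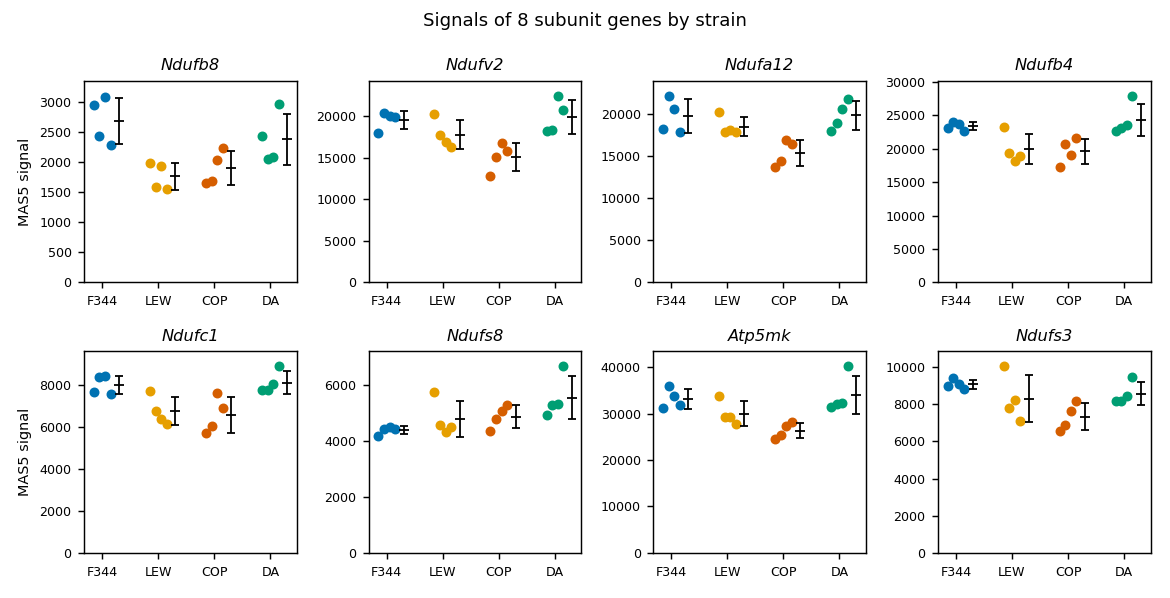
Signals of 8 subunit genes, 1 panel each with its own linear axis from 0; points are arrays, and the bar beside them is the strain mean with its SD (n = 4). In Ndufa12 and Ndufv2 the COP points lie below all F344 and DA points, while in Ndufs8 the F344 points are the lowest of the strains on average.

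The other complex I genes called between F344 and COP were Ndufa2, Ndufa6, Ndufb3, Ndufb5, Ndufb7, Ndufb9 and Ndufc2, all higher in F344 by 0.21 to 0.28. Ndufa2 was the complex I gene in which F344 exceeded each of the 3 other strains, with means of 9224 ± 336 (SD, n = 4 as in all strain means) in F344 rats, 7613 ± 325 in LEW, 7682 ± 593 in COP and 7985 ± 862 in DA. Its adjusted p-values were 0.0124 against LEW, 0.0117 against COP and 0.0475 against DA. Ndufs4, an accessory subunit of the matrix arm, was called low in LEW and in COP against DA, by -0.26 and -0.25, and Ndufa8 was called in COP minus DA alone at -0.22.

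Of the 4 complex II genes, which also serve the tricarboxylic acid cycle as succinate dehydrogenase, only Sdhc passed a test. Sdhc, a membrane anchor, averaged 12034 ± 206 in F344 rats, 10452 ± 1141 in LEW, 10135 ± 487 in COP and 11301 ± 451 in DA. It was higher in F344 than in LEW by 0.21 ± 0.07 (adjusted p 0.0385) and than in COP by 0.25 ± 0.07 (adjusted p 0.0104). For F344 minus COP the flavoprotein Sdha gave 0.14, the iron-sulfur protein Sdhb 0.19 and the second anchor Sdhd 0.19, none of which passed.

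In complex III, Uqcr10, a small accessory subunit, averaged 31103 ± 1022 in F344 rats, 27156 ± 1557 in LEW, 26297 ± 1584 in COP and 29744 ± 2654 in DA. It was higher in F344 than in LEW (0.20 ± 0.06, adjusted p 0.0457) and than in COP (0.24 ± 0.06, adjusted p 0.00985). Uqcrc1, a core protein, was higher in F344 than in COP by 0.23, and Uqcr11 higher in F344 than in LEW by 0.23. The Rieske iron-sulfur protein Uqcrfs1, the core protein Uqcrc2, the hinge protein Uqcrh and Uqcrq passed no test.

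Complex V gave 5 calls among 16 genes between F344 and COP, all higher in F344 (background 10.4% of all genes higher and 10.6% lower). One was in the F1 head, Atp5f1c (the rotating gamma subunit, 0.24), 2 were in the peripheral stalk, Atp5pf (0.23) and Atp5po (0.29), and 2 in the membrane part, Atp5mf (0.20) and Atp5mk (0.33). Atp5mk, a small membrane subunit, had 31219, 35901, 33743 and 31885 in F344 rats, 33849, 29204, 29259.6 and 27707 in LEW, 24634, 25315, 27382 and 28132 in COP and 31453, 32061, 32244 and 40179.8 in DA. COP arrays were below every F344 and DA array and overlapped LEW. The differences were 0.33 ± 0.08 for F344 minus COP (adjusted p 0.00435) and -0.36 ± 0.08 for COP minus DA (adjusted p 0.00362).

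The catalytic beta subunit Atp5f1b was called in COP minus DA alone (-0.22, adjusted p 0.0373), as were the stalk subunits Atp5pb (-0.19, adjusted p 0.0482) and Atp5pd (-0.21, adjusted p 0.0373). Atp5if1, the inhibitor that stops complex V from breaking down ATP, averaged 11200 ± 163 in F344 rats, 12526 ± 1134 in LEW, 11148 ± 616 in COP and 11035 ± 779 in DA and passed no test. The ring subunit Atp5mc3 averaged 32992 ± 1035 in F344 rats, 29331 ± 2171 in LEW, 30477 ± 727 in COP and 32452 ± 2888 in DA, and passed none either.

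Complex IV holds pairs of tissue isoforms, and the calls differed between them. Cox6a2 and Cox8b, the forms of subunits 6a and 8 made in heart and skeletal muscle of rodents, were higher in F344 than in COP, while their widely expressed counterparts Cox6a1 and Cox8a were not called in any pair.

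Cox6a2 had signals of 23849, 26401, 26607 and 24525 in F344 rats, 25933, 21699, 20329.9 and 17899 in LEW, 16436, 18839.6, 22229 and 22189 in COP and 22884, 23522, 23556 and 30352 in DA. All COP arrays were below all F344 and all DA arrays. F344 minus COP was 0.36 ± 0.11 (adjusted p 0.0243), and COP minus DA was -0.33 ± 0.11 with an adjusted p of 0.0505, just over the threshold. Cox6a1 had 11122, 11228, 10382 and 10931 in F344 rats, 12078, 11515, 11102 and 11506 in LEW, 10319.9, 10857, 11268 and 10456 in COP and 10712, 11528, 11086 and 11892 in DA. Its arrays overlapped in every pair of strains, and F344 minus COP was 0.03 ± 0.05 (adjusted p 0.788).

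Cox8b had 26104, 25204, 28735 and 27716 in F344 rats, 25837, 21499.7, 20978 and 17491 in LEW, 16524, 18901, 24241 and 23642 in COP and 26102, 23128, 25829 and 31929 in DA. F344 arrays were above all COP arrays (0.39 ± 0.12, adjusted p 0.0256), and COP minus DA was -0.37 ± 0.12 (adjusted p 0.048) with overlapping arrays. The COP minus DA call was lost without any one of 11 arrays. Cox8a had 15076, 16394, 16612 and 16204 in F344 rats, 17357, 16766, 16650.2 and 16379 in LEW, 15409.7, 15372, 16392 and 15546 in COP and 14552, 16675, 16179 and 16949 in DA. Its arrays too overlapped in every pair, and F344 minus COP was 0.04 ± 0.05 (adjusted p 0.713). The third muscle form, Cox7a1, had 1145, 891, 1155 and 855 in F344 rats, 922, 1019.6, 917 and 773 in LEW, 582, 964, 907 and 975 in COP and 932, 1053, 874 and 1016 in DA, with overlap in every pair. Its F344 minus COP value was 0.26 ± 0.14 (adjusted p 0.242).

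The ratio of related complex IV genes within each array was compared by a two-sided exact permutation test, over 36 comparisons of 6 gene pairs. The pairs with a muscle form were Cox6a2 over Cox6a1, Cox8b over Cox8a and Cox7a1 over Cox7a2l, which is not the common form of Cox7a1. The others were Cox4i2 over Cox4i1, Cox6b2 over Cox6b1 and Ndufa4l2 over Ndufa4. For F344 minus COP the log2 ratio differed by 0.33 for Cox6a2 over Cox6a1 and by 0.35 for Cox8b over Cox8a, both with an exact permutation p of 0.0286, the smallest that 4 against 4 arrays allow. Both had an adjusted p of 0.257. A few ratios at that smallest p cannot pass an adjustment over 36 comparisons, so the adjusted values decide nothing about these ratios. For Cox8b over Cox8a the ratio also differed by 0.40 between F344 and LEW, at an exact permutation p of 0.0286. So did Ndufa4l2 over Ndufa4 between F344 and DA, by 0.83, and both had the same adjusted p of 0.257.

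The promoters of these genes are shown because one isoform of a subunit was called and the other was not. They are RefSeq windows of 250 bases before to 50 bases after the gene start in the assembly GRCr8, written 5′ to 3′ on the gene's strand, with capitals marking matches to 5 motifs of factors known to act on respiratory genes. The motifs, searched on both strands, were the NRF1 palindrome, CCGGAAG (ETS/GABP), AAGATGGC (YY1), CAAGGTCA (ERR) and GGGCGG (SP1). The muscle forms come first, Cox6a2 (chr1:192219667-192219966, minus strand) and Cox8b (chr1:205408224-205408523, minus strand), then Cox8a (chr1:213833574-213833873, minus strand), and then the complex I genes Ndufa12 (chr7:30658066-30658365, plus strand) and Ndufb4 (chr11:76568928-76569227, plus strand), which separated COP from F344 and DA.
Cox6a2: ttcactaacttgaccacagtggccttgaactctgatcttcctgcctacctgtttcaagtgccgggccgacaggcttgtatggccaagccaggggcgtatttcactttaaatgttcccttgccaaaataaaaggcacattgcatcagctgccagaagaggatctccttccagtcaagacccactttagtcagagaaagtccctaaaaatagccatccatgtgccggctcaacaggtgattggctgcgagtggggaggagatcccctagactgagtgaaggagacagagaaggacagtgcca
Cox8b: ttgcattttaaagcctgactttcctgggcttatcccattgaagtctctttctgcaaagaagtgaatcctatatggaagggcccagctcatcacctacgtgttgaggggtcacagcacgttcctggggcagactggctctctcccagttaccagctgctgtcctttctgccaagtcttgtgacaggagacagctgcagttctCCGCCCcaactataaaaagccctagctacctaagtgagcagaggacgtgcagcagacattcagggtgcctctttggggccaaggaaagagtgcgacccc
Cox8a: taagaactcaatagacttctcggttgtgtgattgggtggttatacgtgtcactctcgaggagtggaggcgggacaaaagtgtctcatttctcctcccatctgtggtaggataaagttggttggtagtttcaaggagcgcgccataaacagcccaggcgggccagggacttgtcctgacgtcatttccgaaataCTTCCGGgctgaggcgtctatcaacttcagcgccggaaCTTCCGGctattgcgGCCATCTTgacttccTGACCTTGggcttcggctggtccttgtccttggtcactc
Ndufa12: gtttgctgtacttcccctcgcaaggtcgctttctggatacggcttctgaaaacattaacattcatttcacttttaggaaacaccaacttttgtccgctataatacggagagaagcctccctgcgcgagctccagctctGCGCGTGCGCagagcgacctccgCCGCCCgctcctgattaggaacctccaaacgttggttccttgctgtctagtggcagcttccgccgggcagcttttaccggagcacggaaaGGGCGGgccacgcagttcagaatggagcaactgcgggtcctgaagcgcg
Ndufb4: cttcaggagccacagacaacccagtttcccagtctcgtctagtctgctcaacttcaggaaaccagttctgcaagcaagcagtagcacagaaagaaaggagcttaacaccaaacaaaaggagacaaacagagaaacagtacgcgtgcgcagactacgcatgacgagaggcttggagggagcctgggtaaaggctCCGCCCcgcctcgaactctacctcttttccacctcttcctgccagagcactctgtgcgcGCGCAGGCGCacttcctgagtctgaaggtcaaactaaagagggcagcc

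The Cox6a2 window held none of the 5 motifs and that of Cox8b 1 match to the SP1 letters. The Cox8a window held 2 matches to the ETS/GABP letters and 1 each to YY1 and ERR. Both complex I windows shown held an NRF1 match, which 6 of the 31 matched complex I windows had. In Ndufv2, Ndufb3, Ndufs7 and Ndufa9 the COP arrays also lay below all F344 and all DA arrays. None of their windows held an NRF1 match, and those of Ndufv2 and Ndufb3 held none of the 5 motifs. Promoter windows were matched for 71 of the 79 genes, and the unmatched genes included Cox6a1. The NRF1 letters were in 18.3% of the 71 windows (4.71% of all 27457 windows, and 10.1% of 8720 windows of other genes tested on the arrays). ETS/GABP letters were in 28.2% (9.22% and 18.3%), YY1 in 22.5% (3.44% and 5.61%), ERR in 4.23% (1.48% and 0.826%) and SP1 in 43.7% (34.9% and 63.1%). These matches are a description of letters and show no binding.

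**Figure D4:**
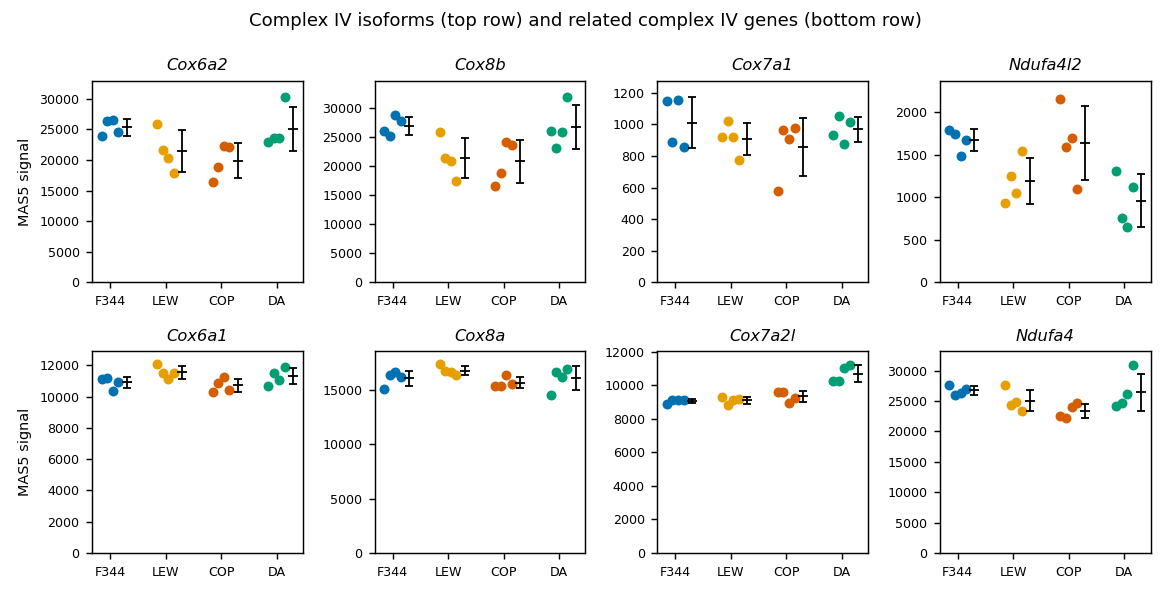
Signals of complex IV genes by strain, 1 panel each with its own linear axis from 0; points are arrays, and the bar beside them is the mean with its SD (n = 4). The muscle forms Cox6a2 and Cox8b are lower in COP than in F344, the arrays of Cox6a1 and Cox8a overlap in every pair of strains, and Cox7a2l stands higher in DA than in the other 3 strains.

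Cox7a2l and Ndufa4l2 each followed a pattern of their own. Cox7a2l, which in mice helps to join complexes III and IV into supercomplexes, had 8884, 9132, 9151 and 9121 in F344 rats, 9296, 8838, 9122 and 9168 in LEW, 9582, 9604, 8918 and 9249.7 in COP and 10265, 10284, 11022 and 11224 in DA. All DA arrays were above all 12 others. It had the lowest adjusted p of the F-test among the 78 genes, 0.0017, with differences of -0.24 ± 0.05 for F344 minus DA (adjusted p 0.00171), -0.23 ± 0.05 for LEW minus DA (adjusted p 0.00266) and -0.20 ± 0.05 for COP minus DA (adjusted p 0.01). Its promoter window (chr6:16936324-16936623, plus strand) is shown because its DA level stood apart, with the 4 matches to the SP1 letters in capitals.
Cox7a2l: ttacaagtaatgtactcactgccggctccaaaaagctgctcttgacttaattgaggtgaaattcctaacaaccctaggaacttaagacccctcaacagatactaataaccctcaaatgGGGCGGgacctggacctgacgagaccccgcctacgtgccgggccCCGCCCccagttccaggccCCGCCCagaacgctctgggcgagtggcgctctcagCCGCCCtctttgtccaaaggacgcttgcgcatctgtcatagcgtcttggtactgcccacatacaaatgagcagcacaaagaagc

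Ndufa4l2, a paralog of Ndufa4 that is induced by low oxygen in human and mouse cells, had the widest range of strain means among the 78 genes. Its signals were 1788, 1745, 1486 and 1671 in F344 rats, 937, 1252, 1046 and 1545 in LEW, 2157, 1591, 1694 and 1099 in COP and 1315, 758, 649.8 and 1118 in DA. F344 was above DA in every array, 1.81-fold (log2 0.85 ± 0.20, adjusted p 0.00559), and COP minus DA was 0.79 ± 0.20 (adjusted p 0.0132) with 2 DA arrays above the lowest COP array. Without COP replicate 1 this second difference was 0.64 (adjusted p 0.0603), without DA replicate 3 it was 0.62 (adjusted p 0.0577), and in the muscle covariate fit it was 0.50 (adjusted p 0.308). COP, which was lowest for most subunits, was not low here. Ndufa4, on chromosome 4, had 27739, 25999, 26360.0 and 27077 in F344 rats, 27618, 24416, 24928 and 23433 in LEW, 22534, 22159, 24057 and 24689 in COP and 24146, 24676, 26214 and 30876 in DA. It was higher in F344 than in COP by 0.20 ± 0.07 (adjusted p 0.0491) and its call was lost without any one of 11 arrays and under quantile normalization, median centring, no filter, no intensity trend and the replicate block. With the muscle marker mean as a covariate its difference turned to -0.0024.

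Of the remaining complex IV genes Cox7c was called in LEW minus DA (-0.23, adjusted p 0.0434). The rest, which include Cox4i1 and its lung form Cox4i2, Cox5a, Cox5b, Cox6b1 and its testis form Cox6b2, Cox6c, Cox7b and the annotated pseudogene Cox6c-ps1, passed no test. Cox4i1 averaged 38440 ± 794 in F344 rats, 37101 ± 3319 in LEW, 34578 ± 1787 in COP and 38820 ± 3574 in DA, and Cox4i2 averaged 487 ± 54 in F344 rats, 429 ± 85 in LEW, 432 ± 53 in COP and 387 ± 116 in DA. Subunits 1 and 2 of complex IV, which mitochondrial DNA encodes, were the 2 such genes with a named probe set, and 0 of 2 passed in any pair.

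With the study's locus in view, 4 of the subunit genes are on chromosome 4: Ndufa4, Ndufa5, Ndufa9 and Ndufb2. Between F344 and LEW their differences were 0.10, 0.23, 0.23 and 0.15, of which that of Ndufa9 passed (background 6.96% of all genes higher in F344). The Ndufa9 call was lost without any one of 9 arrays. Whether any of these genes lies within the mapped locus was not examined.

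Skeletal muscle markers moved with the subunits. The mean centred log2 signal of the 17 markers was 0.11, 0.18, 0.17 and 0.17 in F344 rats, 0.18, -0.03, -0.11 and -0.22 in LEW, -0.45, -0.22, -0.05 and -0.08 in COP and 0.01, 0.00, 0.05 and 0.28 in DA. F344 arrays were above all COP arrays on this scale too, and the arrays lowest and highest for the subunits, COP replicate 1 and DA replicate 4, were lowest and highest for muscle. Between F344 and COP 8 of 17 markers were higher in F344 and 0 lower (background 10.4% and 10.6% of all genes), with a median of 0.29. Between COP and DA 9 were lower in COP and 1 higher (background 6.42% and 5.74%), with a median of -0.31. Myh4, a fast myosin heavy chain, was higher in F344 than in COP by 0.88 and Pygm, muscle glycogen phosphorylase, by 0.87. The higher one in COP was Myh1, another fast myosin, with means of 13884 in F344 rats, 11998 in LEW, 12170 in COP and 7209 in DA.

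**Figure D5:**
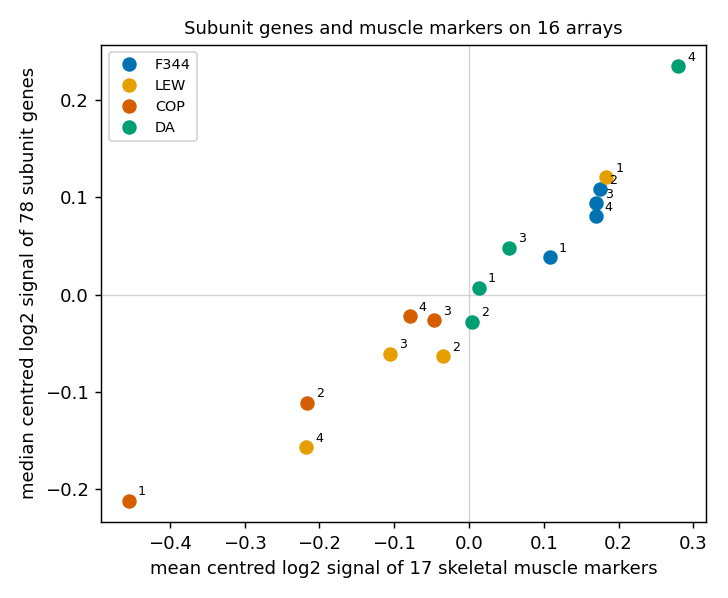
Each point is 1 array, coloured by strain and numbered by replicate: the mean centred log2 signal of 17 skeletal muscle markers on the horizontal axis and the median centred log2 signal of the 78 subunit genes on the vertical axis. Arrays high in one are high in the other, from COP replicate 1 at -0.45 and -0.21 to DA replicate 4 at 0.28 and 0.23.

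When the mean of the muscle markers was added to the fit as a covariate, an alternative chosen after seeing the data, 0 of the 78 genes were higher in F344 than in COP and 4 were lower (background 5.93% and 6.0% in that fit), and the median difference became -0.05. The 4 were Ndufs8 (-0.48), Uqcrc2 (-0.25), Uqcrq (-0.29) and Atp5me (-0.46). COP minus DA then had 0 genes lower and 2 higher (background 2.67% and 2.63%), Ndufv3 and Atp5me, with a median of 0.02. Without the covariate, a second, dimmer probe set of these 2 genes gave -0.34 and -0.20 in this pair, where the brightest gave 0.03 and 0.15. Calls that remained in that fit included Cox7a2l at -0.24 and Ndufa4l2 at 0.92 in F344 minus DA, Ndufs8 at -0.39 in the same pair, and Ndufb8 at 0.41 in F344 minus LEW (adjusted p 0.00109, 0.00159, 4.9e-05 and 0.0247). In the F-test of that fit 8 genes passed (background 29.2%). F344 minus LEW had 2 higher and 2 lower (7.69% and 7.24%), F344 minus DA 2 higher and 4 lower (10.4% and 10.6%), LEW minus COP 0 higher and 3 lower (6.10% and 7.21%) and LEW minus DA 0 higher and 2 lower (4.11% and 5.27%). The covariate was measured on the same arrays and differs between strains, so it also takes out any strain difference that runs with it.

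Adipocyte markers moved in the same direction. Ucp1, the uncoupling protein of brown fat, averaged 1434 ± 68.6 in F344 rats, 1037 ± 1203 in LEW, 149 ± 86.1 in COP and 394 ± 233 in DA. Cidea, a droplet protein of brown fat, averaged 1133 ± 78.6 in F344 rats, 807 ± 325 in LEW, 508 ± 82.8 in COP and 1146 ± 337 in DA. The other kept marker of 6, Ppargc1a, was not called. Of 6 kept white adipocyte markers, 3 were higher in F344 than in COP and 0 lower (background 10.4% and 10.6% of all genes). Their part in the subunit differences was not tested.

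Counts for other lists of energy metabolism genes were taken between F344 and COP. The background in this pair was 10.4% of all genes higher in F344 and 10.6% lower. Of 13 tricarboxylic acid cycle genes, 8 were higher in F344 and 0 lower, with a median of 0.25. They were led by Idh3a (0.44), a subunit of the NAD-linked isocitrate dehydrogenase, and Sucla2 (0.35), a subunit of succinyl-CoA ligase. Of 12 genes for electron carriers and coenzyme Q synthesis 4 were higher and 0 lower (median 0.23), among them Coq8a (0.51) and Etfb (0.30). Of 18 carriers and channels 7 were higher and 0 lower (median 0.18), with Vdac1, the main channel of the outer membrane, at 0.57 and Ucp3, a muscle uncoupling protein relative, at 0.79. Of 13 glycolysis genes 3 were higher and 0 lower (median 0.17), led by Tpi1 at 0.47.

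Genes that build the complexes did not move as 1 group. Of 38 assembly factors 8 were higher in F344 than in COP and 3 lower (background 10.4% and 10.6% of all genes), with a median of 0.07. Sco1, a copper chaperone of complex IV, averaged 833 ± 127 in F344 rats, 751 ± 128 in LEW, 779 ± 59.2 in COP and 1448 ± 92.9 in DA, and was higher in DA than in each other strain (-0.81 for F344 minus DA, -0.96 for LEW minus DA and -0.89 for COP minus DA). Cox18, which inserts a complex IV subunit into the membrane, averaged 1614 ± 229 in F344 rats, 2434 ± 159 in LEW, 2459 ± 175 in COP and 2407 ± 170 in DA, with an F344 minus LEW difference of -0.60 ± 0.09 (adjusted p 6.9e-05). Acad9, needed for complex I assembly, was highest in DA and Sdhaf2, which attaches the flavin of complex II, was higher in F344 and LEW than in COP and DA.

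Of 19 regulators of mitochondrial biogenesis, 3 were higher in F344 than in COP and 1 lower, with a median of 0.08. The background was 10.4% of all genes higher and 10.6% lower. Ppargc1b, a coactivator of respiratory gene transcription, averaged 401 ± 70.8 in F344 rats, 269 ± 15.5 in LEW, 279 ± 30.0 in COP and 273 ± 40.6 in DA and was higher in F344 than in each other strain, by 0.51 to 0.56. Esrrg, an oestrogen-related receptor of oxidative tissues, was higher in F344 than in COP by 0.47.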

How the data were processed

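Expression was measured on 16 1-colour arrays of femur RNA. The deposited signal of each probe set is an intensity on a linear scale from the MAS5 algorithm, according to the authors (per the submitters' processing notes). The MAS5 version and scaling target: not given in the sources used here. A 2% trimmed mean was 1000.3 on every array, so the deposited values were already scaled. No further scaling was applied. The 255 values under 1 were set to 1 and log2 was taken. Of 31042 non-control probe sets, 20826 had 1 gene symbol, 436 several and 9780 none. Probe sets with a mean log2 value below the 40th percentile (signal 173.5) were left out, which kept 18625 with or without a symbol. limma 3.58.1 in R 4.3.3 was fitted to these over the 4 strains (lmFit, eBayes with an intensity trend, 12 residual degrees of freedom). The p-values were adjusted over all kept probe sets by Benjamini-Hochberg, with a threshold of 0.05. Each gene was then read from its brightest probe set, giving 10548 genes. The fit was checked on simulated data. Figures were drawn with matplotlib 3.10.9.

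Genes were named with values if a test called them, if they were a tissue isoform, the highest or lowest of their complex, a complex II gene, the complex V inhibitor, or under the filter, and up to 4 called genes of each other list. The members and lists were chosen with earlier results of these data known. Another normalization, pseudocount, filter, trend, array weights, probe set rule, a replicate block and leaving out each array were tried, with a muscle covariate added after seeing the data. Same-numbered arrays of different strains did not deviate together (median correlation -0.002, range -0.17 to 0.088 over 24 pairs), so replicate numbers were not used as a block. The number of arrays limits the precision.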

Additional observations from a re-analysis of the deposited data

Results flagged for a closer look

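In groups of 4 arrays, a sample was picked out where its gap to the nearest of the others was a large part of the group's range (Dixon's test at its 95% critical value). Of 112 groups tested, 11 were picked out (9.82%), where chance alone picks out about 1 in 20 of independent groups. These groups come from the same arrays and are not independent, so the shares are not compared by a test. DA replicate 4 accounted for 7 of the 11 and was high in each. Its signals were 36763 for Atp5mc3, 40180 for Atp5mk, 44174 for Cox4i1, 30352 for Cox6a2, 32469 for Cox6b1 and 27856 for Ndufb4, and its median over the complex IV genes was 0.246 on the centred log2 scale. The same array had the highest mean of the skeletal muscle markers, 0.28, and the part of muscle RNA in these values was not tested.

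The other 4 were spread over arrays. Cox6b2 was high in DA replicate 1 at 285, Cox7a2l was low in F344 replicate 1 at 8884, Cox8a was high in COP replicate 3 at 16392, and Ndufa12 was high in LEW replicate 1 at 20225.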

How the results depend on the processing

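The median difference of the 78 genes kept its direction in all 6 strain pairs under every planned setting other than leaving out an array, while counts moved more. With quantile normalization 14 genes differed between F344 and LEW and 10 between COP and DA, and with median centring 3 differed between F344 and LEW and 3 between LEW and DA. Without the filter on low signals the counts were 3 for F344 and LEW, 0 for LEW and COP, 3 for LEW and DA and 8 for COP and DA. Without the intensity trend the F-test called 12, and the pairs gave 3 for F344 and LEW, 14 for F344 and COP, 0 for LEW and COP, 2 for LEW and DA and 8 for COP and DA. Array weights gave 19 for F344 and LEW. With the replicate number as a block, the counts were 17 in the F-test, 3 for F344 and LEW, 22 for F344 and COP, 3 for F344 and DA, 1 for LEW and COP, 4 for LEW and DA and 8 for COP and DA. The share of all genes called was not counted under these settings or with an array left out, so such counts have no background beside them. The cause of these moves was not tested.

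Leaving out 1 array gave 15 to 40 genes in the F-test, 3 to 21 for F344 and LEW, 11 to 32 for F344 and COP, 2 to 5 for F344 and DA, 0 to 4 for LEW and COP, 1 to 11 for LEW and DA and 4 to 21 for COP and DA. For LEW and DA the count was 11 without LEW replicate 1, 1 without LEW replicate 2 and 2 without LEW replicate 4. Some single calls were fragile. Those of Uqcr10 in F344 minus LEW, Uqcrc1 in F344 minus COP and Cox7c in LEW minus DA were lost without any one of 12 arrays. That of Atp5pb in COP minus DA was lost without any one of 11. Whichever array was left out, calls kept were 3 of 7 for F344 and LEW, 11 of 27 for F344 and COP, 2 of 4 for F344 and DA (Cox7a2l and Ndufa4l2), 0 of 1 for LEW and COP, 1 of 6 for LEW and DA (Cox7a2l) and 4 of 16 for COP and DA (Atp5mk, Cox7a2l, Ndufa12 and Ndufv2). The medians ran from 0.087 to 0.177 for F344 minus LEW, 0.142 to 0.198 for F344 minus COP, -0.0029 to 0.088 for F344 minus DA, 0.0095 to 0.096 for LEW minus COP, -0.157 to -0.050 for LEW minus DA and -0.193 to -0.107 for COP minus DA.

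With the muscle marker mean as a covariate, 8 genes passed the F-test and the counts were 4 for F344 and LEW, 4 for F344 and COP, 6 for F344 and DA, 3 for LEW and COP, 2 for LEW and DA and 2 for COP and DA. The medians were -0.0094 for F344 minus LEW, -0.0505 for F344 minus COP, -0.017 for F344 minus DA, -0.042 for LEW minus COP, -0.021 for LEW minus DA and 0.0215 for COP minus DA, so 5 of the 6 turned sign and that of LEW minus DA did not. For F344 minus COP 11 of the 27 called genes changed sign in that fit: Ndufb4 (-0.0099), Ndufb9 (-0.029), Ndufc1 (-0.0076), Ndufb3 (-0.010), Ndufb5 (-0.045), Ndufs7 (-0.084), Uqcrc1 (-0.061), Cox6a2 (-0.092), Cox8b (-0.096), Ndufa4 (-0.0024) and Atp5f1c (-0.018). For COP minus DA Cox8b turned to 0.02. Of the 61 calls of a gene in a strain pair, the other 49 kept their sign under all settings run, and under the settings without the covariate 0 of the 61 changed sign. Most differences were under 1.3-fold, signals near the filter are less precise, and bright probe sets may be compressed.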

Other observations

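Genes of marrow and bone cells were counted in the same tests. The background was 10.4% of all genes higher and 10.6% lower for F344 minus COP. For COP minus DA it was 5.74% higher and 6.42% lower. Between F344 and COP, 1 of 10 erythroid markers was higher in F344 and 1 lower, 0 of 6 neutrophil granule markers were higher and 4 lower, and 0 of 13 cell cycle genes were higher and 3 lower. Of 8 osteoblast markers 1 was higher and 0 lower. By limma's adjusted p, 0 of 5 osteoclast markers and 0 of 9 cartilage markers were called in that pair. Between COP and DA, 4 of the erythroid markers were lower in COP and 0 higher, and 3 of the neutrophil markers were higher and 0 lower.

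Of the 79 subunit genes 8 had several probe sets, and for 5 of them a second one passed the filter. The second probe set of Ndufv3 gave -0.50 for F344 minus DA (adjusted p 0.043), where the brightest gave 0.21. For F344 minus COP the second probe set of Uqcrc2 gave 0.16 and the brightest -0.01, and for Sdhd the second gave 0.17 and the brightest 0.19. For F344 minus LEW the second probe set of Atp5if1 gave 0.08 (adjusted p 0.84) and the brightest -0.16, and for Atp5me the second gave -0.32 (adjusted p 0.477) and the brightest 0.27.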
